A study of Solanum lycopersicum with 6 samples.

Results

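Calcium signalling genes were followed in tomato (Solanum lycopersicum) roots as the 325 genes, of 35768 in the deposited table, whose description names a calcium sensor, a calcium-regulated kinase, a channel, a calcium pump or a calmodulin target. The description text alone chose them, by the words calmodulin, calcium-dependent protein kinase, CBL-interacting, calcineurin B, calcium-binding, glutamate receptor, cyclic nucleotide-gated and calcium-transporting ATPase. They divide into 117 sensors, 60 kinases, 53 channels, 28 pumps and 67 calmodulin targets. RNA sequencing compared roots of slszp1 mutant plants (n = 3) with roots of wild type (WT) plants (n = 3). All plants were 20 days old, and both genotypes were kept in 60 µM aluminium (Al) at pH 4.7. SZP1 is known as a zinc finger protein that partners STOP1, a factor needed for tolerance of Al and acid soil. The labels give no allele for the mutant and no number of plants per library, and roots without Al were not analysed here. Each difference is therefore between genotypes under Al, not a response to Al.

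Calcium ions act as messengers in plant cells. Channels let calcium into the cytosol, pumps and exchangers remove it, and proteins with EF-hands, the loops that bind the ion, change shape when it rises. Calmodulin and calcineurin B-like (CBL) proteins carry no catalytic part and act through partners, CBL proteins through CBL-interacting protein kinases (CIPK), whereas calcium-dependent protein kinases (CDPK) join sensor and kinase in a single protein. In roots this system is known for its part in ion uptake, stress responses and growth, and Al is known to disturb root calcium.

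Levels are given in TPM, each gene's share of the transcripts of a library after correction for gene length, a unit inferred from the values because the header names none. A change is the difference in log2(TPM + 1) between slszp1 and WT, slszp1 minus WT, followed by its standard error (SE); for genes at low levels the 1 that is added makes it smaller than the true ratio. The words rose and fell are kept for genes with a Benjamini-Hochberg adjusted p under 0.05 in a limma fit over the 17702 genes with 1 TPM or more in 3 libraries or more. Across all tested genes 3407 (19.2%) changed, 1542 (8.71%) upward and 1865 (10.5%) downward, with a median change of -0.0005. Sequencing depth is unknown, since TPM keeps none. Summed over 3 genes, RuBisCO small subunit, a leaf marker, was at 0 to 0.06 TPM in every library. A second shoot marker list, 43 chlorophyll a-b binding genes of which 13 passed the expression minimum, summed to 78.7 to 89.4 TPM in slszp1 and 82.7 to 97.4 TPM in WT. Casparian strip genes, markers of root endodermis, summed to 37.0 to 39.5 TPM in slszp1 and 32.1 to 37.8 TPM in WT. Genes of root meristem growth factors summed to 4.82 to 11.4 TPM in slszp1 and 10.8 to 46.5 TPM in WT, and the single gene described as fe inefficient had 0.12 to 0.52 TPM in slszp1 and 49.3 to 107 TPM in WT. Root cap genes summed to 1.69 to 6.36 TPM in slszp1 and 3.17 to 5.34 TPM in WT, and high-affinity nitrate transporter genes to 179 to 230.5 TPM in slszp1 and 167 to 246 TPM in WT. For dividing cells, histone H4 genes summed to 952 to 1344 TPM in slszp1 and 1292 to 2111 TPM in WT. Cyclin B genes summed to 46.4 to 98.5 TPM in slszp1 and 7.62 to 53.6 TPM in WT, also with overlap. The part of cell makeup in the results below was not tested. In whole roots, fewer cells of a type and less RNA per cell cannot be told apart.

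Of the 325 genes, 194 were tested, 74 were listed at 0 in every library and 57 were present below the expression minimum. Among those tested, 54 (27.8%) changed, against 19.2% of all tested genes. The 32 that rose made up 16.5% of the members, against 8.71% of all tested genes, and the 22 that fell made up 11.3%, against 10.5%. The median change of the 194 genes was 0.13. A change of at least 1 in log2(TPM + 1), called 2-fold here, was reached by 22 of the genes that rose and 14 of those that fell. Across all 17702 tested genes, 911 that rose and 1107 that fell reached it. The 1 that is added keeps some low genes with a larger ratio under this cut. In 54 members all slszp1 libraries lay above all WT libraries (27.8%, against 18.2% of all tested genes), and in 31 they lay below (16.0%, against 20.2%). Without WT replicate 1, 35 members changed, 22 upward and 13 downward. Without slszp1 replicate 1 or WT replicate 3, 13 fell. The count over all tested genes also moved with single libraries left out, between 2125 and 3806, against 3407 with all libraries. It was 2125 without WT replicate 1, 2342 without slszp1 replicate 1 and 2437 without WT replicate 3. The counts by class below are to be read beside these.

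**Figure D1:**
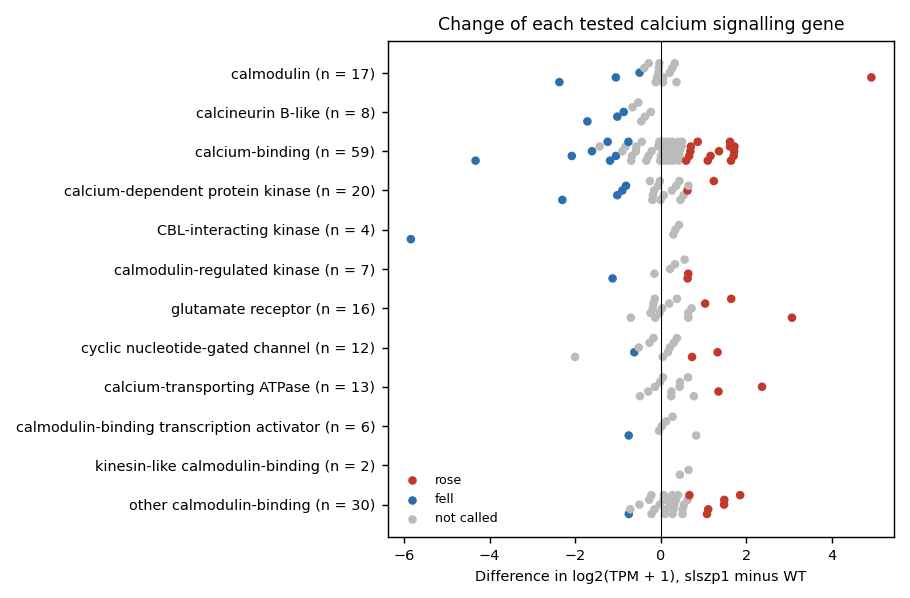
Change of each of the 194 tested genes as the difference in log2(TPM + 1), slszp1 minus WT, by family (n = tested genes in the family). Red points rose and blue points fell by limma, and grey points were not called; the 8 calcineurin B-like genes all lie left of 0, and the calmodulin-like gene at 4.92 and the CIPK model at -5.84 stand farthest out.

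**Figure D2:**
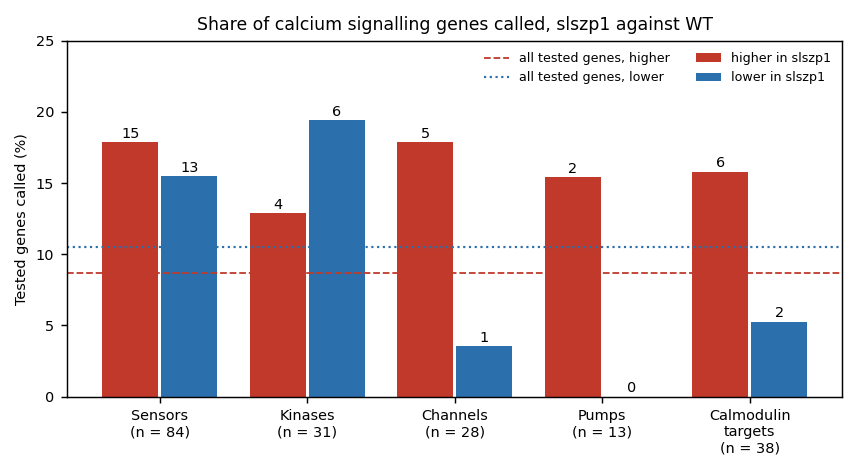
Share of tested genes called higher (red) or lower (blue) in slszp1 for each class, with the number of genes above each bar and n tested below. Lines give the same shares over all tested genes, 8.71% higher and 10.5% lower; the bars for higher genes lie above their line in each class.

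Sensors held the largest number of changed genes. Of 84 tested, 15 rose (17.9%, against 8.71% of all tested genes) and 13 fell (15.5%, against 10.5%), with a median change of 0.05. Without WT replicate 3, 9 rose and 10 fell, and without slszp1 replicate 1 or WT replicate 1, 10 rose. The 6 genes named Calmodulin 1 to Calmodulin 6, the conserved form of the sensor, were not among those that changed. Together they summed to 1785, 1966 and 1566 TPM in slszp1 roots, against 1946, 1679 and 1707 TPM in WT roots. The genotypes overlapped in this sum, and the 6 changes ran from -0.39 to 0.27. The most abundant of them, Calmodulin 1 (Solyc01g008950.3), had 538, 559 and 501 TPM in slszp1 and 555, 442 and 546 TPM in WT.

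Calmodulin genes changed about as often as genes in general. Of 17 tested, 1 rose (5.88%, against 8.71% of all tested genes) and 3 fell (17.6%, against 10.5%), and these 4 are described as calmodulin-like, calmodulin putative or calmodulin family. With any 1 of the 6 libraries left out, 2 fell. The calmodulin-like gene Solyc11g071740.2 had 269, 311 and 186 TPM in slszp1, against 4.57, 16.1 and 4.96 TPM in WT. Every slszp1 library was more than 10 times above the highest WT library, with a change of 4.92 (SE 0.45) with a limma adjusted p of 0.000768. Solyc03g114420.1 went the other way, with 7.29, 6.3 and 3.61 TPM in slszp1 and 39.8, 24.7 and 35.7 TPM in WT, a change of -2.37 (SE 0.27) and a limma adjusted p of 0.000695. Solyc11g072270.2, chosen after its values were seen, fell with 68.8, 84.4 and 51.1 TPM in slszp1 against 152, 118 and 149.7 TPM in WT. These 3 calls held without any single library. That of Solyc03g083520.3, also chosen after its values were seen, at 136, 150.2 and 134 TPM in slszp1 and 191, 205 and 197 TPM in WT, was lost without any of the 6 libraries (limma adjusted p of 0.0503 to 0.127).

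The calmodulin-like gene that rose has neighbours by identifier with values of their own. Solyc11g071750.2, given the same description, was listed at 0 in all 6 libraries. Solyc11g071760.3 is described as regulator of gene silencing, a name used in tobacco for a protein related to calmodulin. Its description does not match the pattern, so it is no member. It had 158, 166 and 109 TPM in slszp1, against 5.14, 12.5 and 8.55 TPM in WT, a change of 3.95 (SE 0.30) with a limma adjusted p of 0.000145. Both genes thus showed WT replicate 2 as the highest of the WT libraries and slszp1 replicate 3 as the lowest of the slszp1 libraries. Whether reads were shared among these neighbours was not tested.

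CBL sensors, which recruit CIPK kinases to membranes, were lower in slszp1 in every tested gene. Of 8 tested, 3 fell (37.5%, against 10.5% of all tested genes) and 0 rose (against 8.71%). With single libraries left out, 2 to 4 fell. In 7 genes slszp1 lay below WT without overlap (87.5%, against 20.2% of all tested genes). The median change was -0.59. The gene described as calcineurin B-like protein 10 (Solyc04g081460.2), whose description matches the Arabidopsis protein only in part, had 3.04, 2.1 and 3.25 TPM in slszp1 and 14.9, 11.2 and 8.68 TPM in WT. All slszp1 libraries were lower, with a change of -1.71 (SE 0.24) and a limma adjusted p of 0.0018. The other CBL genes were outside the rule for named genes and chosen after their values were seen. Solyc08g065330.3 fell with 7.96, 7.65 and 10.1 TPM in slszp1 and 19.4, 14.2 and 22.0 TPM in WT, and Solyc08g007160.3 with 6.03, 8.12 and 5.29 TPM in slszp1 and 11.3, 14.1 and 12.2 TPM in WT. Their changes were -1.01 (SE 0.20) and -0.86 (SE 0.20), and the call of Solyc08g007160.3 was lost without slszp1 replicate 1 (limma adjusted p = 0.0602). The most abundant, Solyc12g015870.2 and Solyc07g065820.3, did not pass, at limma adjusted p of 0.0816 and 0.0694. Solyc12g015870.2 had 46.6, 53.4 and 49.3 TPM in slszp1 against 82.0, 65.9 and 59.6 TPM in WT. The gene whose genotypes overlapped, Solyc06g051970.3, had 8.4, 12.3 and 15.9 TPM in slszp1 and 15.6, 14.5 and 12.3 TPM in WT. Summed over all 16 CBL genes, the level was 129 ± 9.09 TPM in slszp1 and 197 ± 22.6 TPM in WT (SD, n = 3 each).

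Calcium-binding proteins, a description given mostly to EF-hand proteins of unstated function, changed in both directions. Of 59 tested, 14 rose (23.7%, against 8.71% of all tested genes) and 7 fell (11.9%, near the 10.5% of all tested genes). Without WT replicate 3, 8 rose and 5 fell, and without slszp1 replicate 1 or WT replicate 1, 9 rose and 5 fell. The gene with the smallest p of all the sensors was Solyc02g079520.2, described as a calcium-binding EF-hand protein. It had 1.28, 1.91 and 0.86 TPM in slszp1, against 45.1, 38.8 and 53.2 TPM in WT. The groups lay far apart, with a change of -4.33 (SE 0.22) and a limma adjusted p of 1.88e-05. Solyc03g005040.1 fell, with 9.12, 5.85 and 7.17 TPM in slszp1 and 28.6, 41.6 and 32.9 TPM in WT, with a change of -2.08 (SE 0.21). Solyc10g009340.1 had 63.7, 72.7 and 63.8 TPM in slszp1 and 148, 134 and 134 TPM in WT, a change of -1.05 (SE 0.14). At Solyc03g044900.3 the slszp1 libraries held 43.1, 37.9 and 30.4 TPM and the WT libraries 95.7, 77.3 and 92.8 TPM. Its change was -1.24 (SE 0.17). In all 4 genes the slszp1 libraries were the lower ones, and the calls held without any single library.

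Among the genes of this description that rose, Solyc04g039960.3 had 5.06, 4.71 and 6.85 TPM in slszp1 and 0.88, 0.69 and 1.47 TPM in WT, a change of 1.70 (SE 0.24) with a limma adjusted p of 0.00178. A more abundant pair was chosen after the values were seen. Solyc10g006700.1 had 583, 777 and 442 TPM in slszp1, against 173, 261 and 152 TPM in WT. Solyc10g006660.3, which carries the same description and stands close by in identifier order, had 163, 223 and 141 TPM in slszp1, against 64.0, 79.7 and 57.7 TPM in WT. The libraries ranked alike in both genes, with replicate 2 highest in either genotype, and the changes were 1.62 (SE 0.27) and 1.36 (SE 0.21). Solyc10g009340.1, which fell, has that description too. Chosen likewise, the low-quality model Solyc01g020378.1 had 1.11, 1.89 and 3.96 TPM in slszp1 and was listed at 0 in each WT library, so no fold is given. A sodium/calcium exchanger with EF-hands, Solyc07g062700.3, also chosen in this way, moves calcium and is a sensor only by its description. It had 86.4, 80.5 and 89.1 TPM in slszp1 and 46.3, 60.4 and 50.2 TPM in WT, and its call was lost without WT replicate 1 (limma adjusted p = 0.0536). The most abundant member described as calcium-binding, Solyc02g094000.1, did not pass. It had 474, 622 and 361 TPM in slszp1 and 276, 758 and 458 TPM in WT, where WT replicate 2 was the highest library and WT replicate 1 the lowest.

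**Figure D3:**
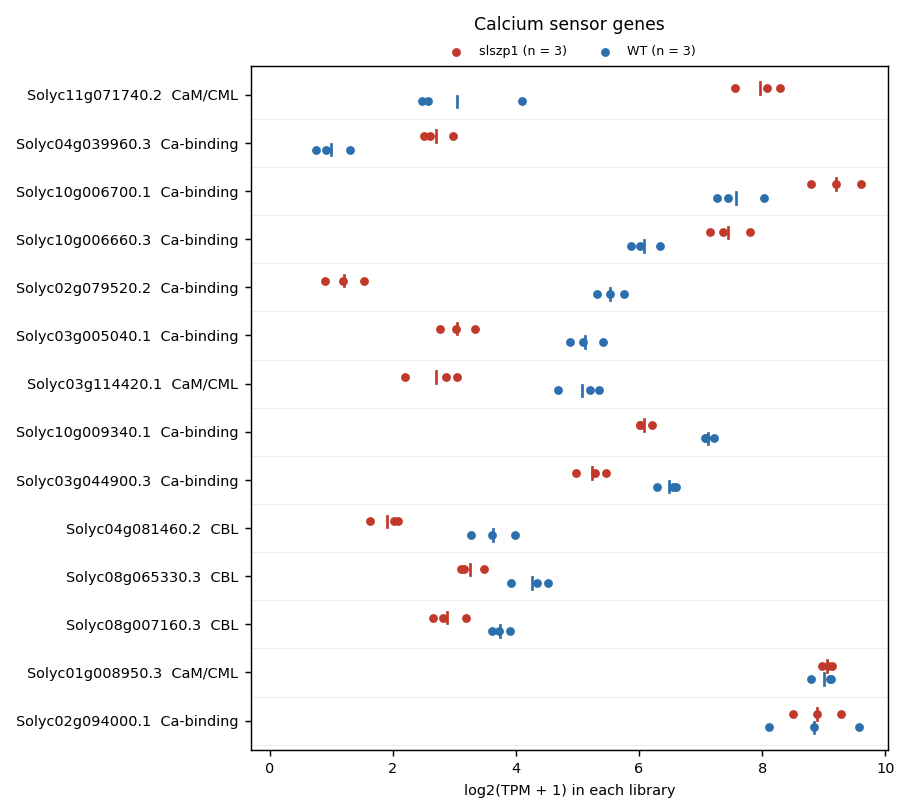
Level of sensor genes in each library as log2(TPM + 1), slszp1 (red, upper points) and WT (blue, lower points), 3 libraries each, with a short line at the mean; CaM/CML stands for calmodulin or calmodulin-like. In all but Calmodulin 1 (Solyc01g008950.3) and Solyc02g094000.1, at the bottom, the genotypes do not overlap.

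Kinases that read calcium changed in both directions, and the counts moved with single libraries, as did those over all genes. Of 31 tested, 4 rose (12.9%, against 8.71% of all tested genes) and 6 fell (19.4%, against 10.5%), with a median change of 0.22. Without WT replicate 1 the counts were 1 and 2, without slszp1 replicate 2 they were 2 and 3, and without slszp1 replicate 3, 2 rose and 5 fell. Without slszp1 replicate 1, 4 fell, and without WT replicate 3, 3 fell. Over all tested genes, 2125 changed without WT replicate 1 and 2315 without slszp1 replicate 2, against 3407 with all libraries. Among CDPK genes, whose products bind calcium through their own EF-hands, 2 of 20 rose (10%, against 8.71% of all tested genes) and 4 fell (20.0%, against 10.5%); without WT replicate 1 the counts were 1 and 1, and without slszp1 replicate 2 they were 1 and 2. Solyc02g083850.3 had 13.7, 16.4 and 14.3 TPM in slszp1, against 25.03, 27.6 and 27.5 TPM in WT, a change of -0.81 (SE 0.15) with a limma adjusted p of 0.0061. Solyc01g006840.3 had 4.07, 3.6 and 6.65 TPM in slszp1 and 0.93, 1.77 and 1.54 TPM in WT, a change of 1.24 (SE 0.26) with a limma adjusted p of 0.0129. These 2 calls held without any single library, and the genotypes did not overlap.

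The other 4 CDPK calls were each lost without some single libraries. Solyc12g005040.2, chosen after its values were seen and matched only in part, had 1.41, 3.49 and 8.68 TPM in slszp1 and 35.0, 14.7 and 21.1 TPM in WT, a change of -2.30 (SE 0.54). Its call was lost without slszp1 replicate 2, WT replicate 1 or WT replicate 3 (limma adjusted p of 0.0997, 0.0799 and 0.0807). Solyc12g099790.2 was low, at 1.12, 0.65 and 0.86 TPM in slszp1 and 2.33, 2.33 and 2.79 TPM in WT. Its call was lost without slszp1 replicate 2, WT replicate 1 or WT replicate 3 (limma adjusted p of 0.0697, 0.0546 and 0.0644). Solyc10g005750.3 had 3.04, 3.68 and 2.11 TPM in slszp1 and 8.58, 7 and 5.33 TPM in WT, and lost its call without slszp1 replicate 1, slszp1 replicate 3 or WT replicate 1 (limma adjusted p of 0.0535, 0.0568 and 0.0806). Solyc11g018610.2, a more abundant gene, had 52.4, 56.5 and 53.4 TPM in slszp1 and 32.9, 31.3 and 40.5 TPM in WT. Its rise of 0.62 (SE 0.15) was lost without any slszp1 library (limma adjusted p of 0.0508 to 0.0773) or WT replicate 1 (0.0737). In each of these 4 genes the genotypes did not overlap. The most abundant CDPK gene matched by the pattern, Solyc03g113390.3, did not pass (limma adjusted p = 0.0758). It had 125, 130.4 and 142 TPM in slszp1 against 87.5, 95.5 and 111 TPM in WT.

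Among 7 tested kinases regulated by calmodulin, 2 rose (28.6%, against 8.71% of all tested genes) and 1 fell (14.3%, against 10.5%). Without WT replicate 1, 0 rose and 1 fell, and without any other library but WT replicate 3, 1 rose and 1 fell. Solyc01g079865.1, which matches only in part a calcium and calcium/calmodulin-dependent kinase, a type known in legumes for decoding nuclear calcium signals in symbiosis, had 47.0, 46.9 and 51.3 TPM in slszp1, against 29.3, 33.4 and 29.4 TPM in WT. It rose by 0.64 (SE 0.13), a call lost without WT replicate 1 (limma adjusted p = 0.0517). Solyc01g068130.3 fell, with 1.28, 1.09 and 1.05 TPM in slszp1 and 4.42, 3.21 and 3.44 TPM in WT, with a change of -1.12 (SE 0.20) and a limma adjusted p of 0.00624. In both genes the genotypes did not overlap. The other that rose, Solyc01g096820.3, was chosen after its values were seen and had 15.5, 16.4 and 21.6 TPM in slszp1 and 11.8, 9.48 and 12.1 TPM in WT. Its change of 0.63 (SE 0.19) had a limma adjusted p of 0.0474, and the call was lost without any of the 6 libraries (0.0718 to 0.116), with no filter (0.0712) and with limma without trend and robust (0.0561).

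Of 9 genes described as CIPK or as a CBL-interacting kinase, 4 were tested and 1 fell (against 10.5% of all tested genes). It is Solyc01g106630.2, whose description matches CIPK23 only in part; in Arabidopsis that kinase activates potassium and nitrate transporters. The model had 18.2, 10.1 and 30.7 TPM in slszp1, against 3642, 192 and 1787 TPM in WT, a change of -5.84 (SE 1.11) with a limma adjusted p of 0.0166. The WT libraries differed widely among themselves, and the call was lost without slszp1 replicate 1, slszp1 replicate 2, WT replicate 1 or WT replicate 3 (limma adjusted p of 0.075, 0.0787, 0.0608 and 0.0987). The neighbouring model Solyc01g106620.2, described as pathogenesis-related protein 1, had 4555, 4272 and 3243 TPM in slszp1 and 303, 2872 and 2264 TPM in WT. It was lowest in the WT library where the kinase model was highest. Added together, both models held 4573, 4282 and 3274 TPM in slszp1, against 3945, 3064 and 4051 TPM in WT. The genotypes overlapped in this sum, which averaged 4043 ± 682 TPM in slszp1 and 3687 ± 542 TPM in WT (SD, n = 3 each). On the other side of the kinase model by identifier, Solyc01g106640.2, also described as pathogenesis-related protein 1, fell. It had 3.76, 2.53 and 0.31 TPM in slszp1 and 24.9, 19.3 and 22.9 TPM in WT. That change of -3.05 (SE 0.45, limma adjusted p of 0.00348) held without any single library. Solyc01g106610.2, next to Solyc01g106620.2, did not pass, at 1760, 1395 and 984 TPM in slszp1 and 1511, 1161 and 1483 TPM in WT. Whether reads of the abundant neighbour Solyc01g106620.2 were assigned to the kinase model was not tested. With the model, the summed level of all 60 kinase genes was 916 ± 66.1 TPM in slszp1 and 2629 ± 1757 TPM in WT (SD, n = 3 each). Without it the sum was 864, 864 and 962 TPM in slszp1, against 759, 695 and 813 TPM in WT, so that the order of the genotypes turned.

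**Figure D4:**
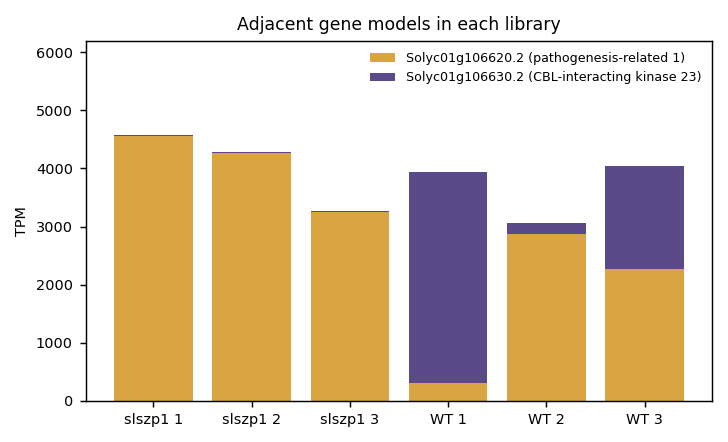
Level in TPM of the model described as CBL-interacting kinase 23 (purple) stacked on that of its neighbour described as pathogenesis-related protein 1 (yellow) in each library. The kinase model reaches 192 to 3642 TPM in WT and at most 30.7 TPM in slszp1, while the stacked heights, 3274 to 4573 TPM in slszp1 and 3064 to 4051 TPM in WT, overlap.

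Channels rose more often than they fell. Of 28 tested genes 5 rose (17.9%, against 8.71% of all tested genes) and 1 fell (3.57%, against 10.5%), and the median change was 0.11. Without slszp1 replicate 3 or WT replicate 1, 3 rose and 0 fell, and without slszp1 replicate 1 or WT replicate 3, 0 fell. At an unadjusted limma p under 0.05, 11 of the 28 channel genes passed with all libraries, against 5758 of all 17702 tested genes. Glutamate receptor genes in plants encode cation channels opened by amino acids. Of 16 tested, 3 rose (18.8%, against 8.71% of all tested genes) and 0 fell (against 10.5%). Without slszp1 replicate 3 or WT replicate 1, 2 rose. At an unadjusted limma p under 0.05, 7 passed, against 5758 of all 17702 tested genes. Solyc04g078860.3 had 18.5, 15.9 and 41.2 TPM in slszp1, against 2.06, 1.73 and 1.84 TPM in WT. The WT libraries lay close together, slszp1 replicate 3 was the highest library, and the gene rose by 3.06 (SE 0.33) with a limma adjusted p of 0.000617. Glutamate receptor-like 2.6 (Solyc08g006500.3) had 27.8, 28.3 and 40.8 TPM in slszp1 and 7.71, 10.03 and 10.99 TPM in WT, a change of 1.65 (SE 0.20) with a limma adjusted p of 0.00114. Glutamate receptor-like 3.2 (Solyc07g052400.3) had 11.01, 10.8 and 17.7 TPM in slszp1 and 4.63, 7.4 and 5.51 TPM in WT. In these 3 genes slszp1 replicate 3 was the highest library, and the call of glutamate receptor-like 3.2 was lost without it, WT replicate 1 or WT replicate 3 (limma adjusted p of 0.0509, 0.0692 and 0.0551).

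Other glutamate receptor genes were chosen after their values were seen. A run of neighbouring identifiers on chromosome 6 held 3 genes whose slszp1 libraries all lay above WT without passing the test. Solyc06g063170.3 had 11.7, 10.7 and 16.5 TPM in slszp1 and 8.42, 6.15 and 9.12 TPM in WT. Glutamate receptor-like 2.3 (Solyc06g063190.3) had 9.3, 8.25 and 7.96 TPM in slszp1 and 5.84, 3.28 and 6.66 TPM in WT. Glutamate receptor-like 2.5 (Solyc06g063210.3) had 10.8, 12.7 and 13.2 TPM in slszp1 and 7.75, 4.53 and 9.71 TPM in WT. Their limma adjusted p were 0.0767, 0.103 and 0.0839. Glutamate receptor-like 2.2 (Solyc06g063180.2), inside the run, overlapped between genotypes, with 4.14, 2.7 and 4.26 TPM in slszp1 and 2.58, 1.78 and 3.57 TPM in WT. Glutamate receptor-like 3.1 (Solyc07g052390.3), next to 3.2 by identifier, had 1.68, 0.96 and 1.78 TPM in slszp1 and 1.63, 1.76 and 1.69 TPM in WT, with overlap. The most abundant model of the class, Solyc03g082885.1, matches its Arabidopsis namesake only in part. It had 652, 704 and 677 TPM in slszp1 and 684, 673 and 630.3 TPM in WT.

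Cyclic nucleotide-gated channel genes (CNGC), cation channels of plants that bind calmodulin, rose at 2 of 12 tested (16.7%, against 8.71% of all tested genes) and fell at 1 (8.33%, against 10.5%). Without slszp1 replicate 3 or WT replicate 1, 1 rose and 0 fell. Solyc05g050380.3 had 59.2, 71.3 and 65.6 TPM in slszp1, against 24.7, 27.8 and 23.8 TPM in WT, a change of 1.33 (SE 0.14) with a limma adjusted p of 0.000548. Its near neighbour by identifier Solyc05g050350.2 went the other way, with 5.58, 7.22 and 4.89 TPM in slszp1 and 9.62, 9.36 and 9.46 TPM in WT, and no overlap. That change of -0.62 (SE 0.18) had a limma adjusted p of 0.0495. It was lost without any library but slszp1 replicate 2 (limma adjusted p of 0.0757 to 0.143) and under 5 other alternatives (0.051 to 0.0805). Solyc07g005590.3 had 61.4, 60.4 and 69.1 TPM in slszp1 and 36.7, 32.1 and 46.0 TPM in WT, a rise of 0.73 (SE 0.17) lost without slszp1 replicate 3 or WT replicate 1 (limma adjusted p of 0.058 and 0.0584). The most abundant CNGC gene, Solyc12g010010.2, did not pass at 110.3, 113 and 143 TPM in slszp1 and 90.5, 102 and 102 TPM in WT. The low-quality model Solyc01g090980.1, chosen after its values were seen, had 214 TPM in WT replicate 2 and 3.43 to 7.55 TPM in the 5 other libraries.

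Calcium-transporting ATPases are the pumps that clear calcium from the cytosol. They rose at 2 of 13 tested genes (15.4%, against 8.71% of all tested genes) and fell at 0 (against 10.5%). At an unadjusted limma p under 0.05, 3 passed, against 5758 of all 17702 tested genes. Solyc09g082870.2 had 6.11, 4.7 and 5.29 TPM in slszp1, against 0.11, 0.32 and 0.27 TPM in WT. All slszp1 libraries were far above WT, by 2.37 (SE 0.20) with a limma adjusted p of 0.000184. The low-quality pump models beside it by identifier, chosen for their place, were listed at 0 in all libraries (Solyc09g082880.2) or did not pass (Solyc09g082890.2, at 59.4, 43.4 and 61.9 TPM in slszp1 and 16.4, 38.8 and 47.9 TPM in WT). Solyc02g090560.3 had 7.89, 9.38 and 8.98 TPM in slszp1 and 2.9, 4.69 and 1.51 TPM in WT, a change of 1.35 (SE 0.29). Without slszp1 replicate 3 its call was lost (limma adjusted p = 0.0515), which left 1 pump called. The most abundant pumps did not pass. Solyc07g008320.3 had 90.6, 102 and 121 TPM in slszp1 and 81.7, 118 and 120.1 TPM in WT, and Solyc11g072880.2 had 50.2, 51.3 and 59.4 TPM in slszp1 and 41.6, 45.4 and 48.4 TPM in WT. Summed over 28 genes, pumps held 330.4 ± 24.8 TPM in slszp1 and 283 ± 47.0 TPM in WT (SD, n = 3 each).

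Calmodulin targets, proteins that bind calmodulin and carry out its effects, rose at 6 of 38 tested genes (15.8%, against 8.71% of all tested genes) and fell at 2 (5.26%, against 10.5%), with a median change of 0.27. Without slszp1 replicate 1, 5 rose and 0 fell, and without slszp1 replicate 2 or WT replicate 3, 0 fell; 1 fell without WT replicate 1. Solyc03g119250.3 had 125, 146 and 122 TPM in slszp1, against 35.6, 40.8 and 30.3 TPM in WT. The groups lay well apart, with a rise of 1.85 (SE 0.16) and a limma adjusted p of 0.000173. Solyc12g036390.2, with the same description, had 73.7, 71.0 and 72.0 TPM in slszp1 and 30.4, 32.7 and 38.3 TPM in WT, a change of 1.08 (SE 0.14). Solyc07g040710.3 had 84.1, 94.5 and 67.8 TPM in slszp1 and 39.8, 33.5 and 38.6 TPM in WT, a change of 1.11 (SE 0.16). Solyc03g113970.3, whose description matches only in part, rose by 1.48 (SE 0.27) with a limma adjusted p of 0.00647. It had 34.7, 30.7 and 53.3 TPM in slszp1 and 9.72, 17.9 and 12.9 TPM in WT. In these 4 genes no slszp1 library overlapped WT and no call was lost without a single library. The low-quality model Solyc01g108440.2 was higher too, with 35.5, 32.4 and 32.4 TPM in slszp1 and 21.0, 19.9 and 21.0 TPM in WT (limma adjusted p = 0.0094). The abundant target Solyc12g008960.2 did not pass, at 104 ± 18.0 TPM in slszp1 and 124 ± 8.29 TPM in WT (SD, n = 3 each; limma adjusted p = 0.311).

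Solyc03g113920.3, of similar description and near Solyc03g113970.3 by identifier, was lower, with 4.51, 3.81 and 5.41 TPM in slszp1 and 8.07, 8.6 and 8.22 TPM in WT. Its call was lost without slszp1 replicate 1 or 2 or WT replicate 1 or 3 (limma adjusted p of 0.073, 0.0883, 0.0726 and 0.0666). Calmodulin-binding transcription activators (CAMTA) take part in cold and defence gene expression in Arabidopsis. They fell at 1 of 6 tested genes (16.7%, against 10.5% of all tested genes) and rose at 0 (against 8.71%). Solyc12g099340.2 had 9.94, 11.6 and 13.4 TPM in slszp1, against 19.2, 19.1 and 22.2 TPM in WT. That change of -0.75 (SE 0.17) was lost without slszp1 replicate 1, slszp1 replicate 2 or WT replicate 3 (limma adjusted p of 0.0644, 0.0517 and 0.0572). The most abundant member of any class was the low-quality model Solyc00g010520.1, with 1918, 1138 and 1689 TPM in slszp1 and 707, 680.4 and 349 TPM in WT. Its rise of 1.48 (SE 0.32) was lost without slszp1 replicate 1 or 3 (limma adjusted p of 0.0504 and 0.0621). Models of other descriptions near it by identifier were chosen after their values were seen. Solyc00g010750.2 had 5774, 3197 and 5014 TPM in slszp1 and 1134, 1374 and 662 TPM in WT. It rose by 2.16 (SE 0.32) with a limma adjusted p of 0.00269. Solyc00g009760.2, also of low quality, had 1264, 710 and 1027 TPM in slszp1 and 321, 391 and 121 TPM in WT. Its rise of 1.97 (SE 0.46) had a limma adjusted p of 0.0252 and was lost without any of 3 libraries. In each of these models slszp1 replicate 2 and WT replicate 3 were the lowest of their genotype. With Solyc00g010520.1 all 67 targets summed to 2732 ± 393 TPM in slszp1 and 1500.4 ± 189 TPM in WT. Without it they summed to 1150.3 ± 23.2 TPM in slszp1 and 922 ± 49.8 TPM in WT (SD, n = 3 each).

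**Figure D5:**
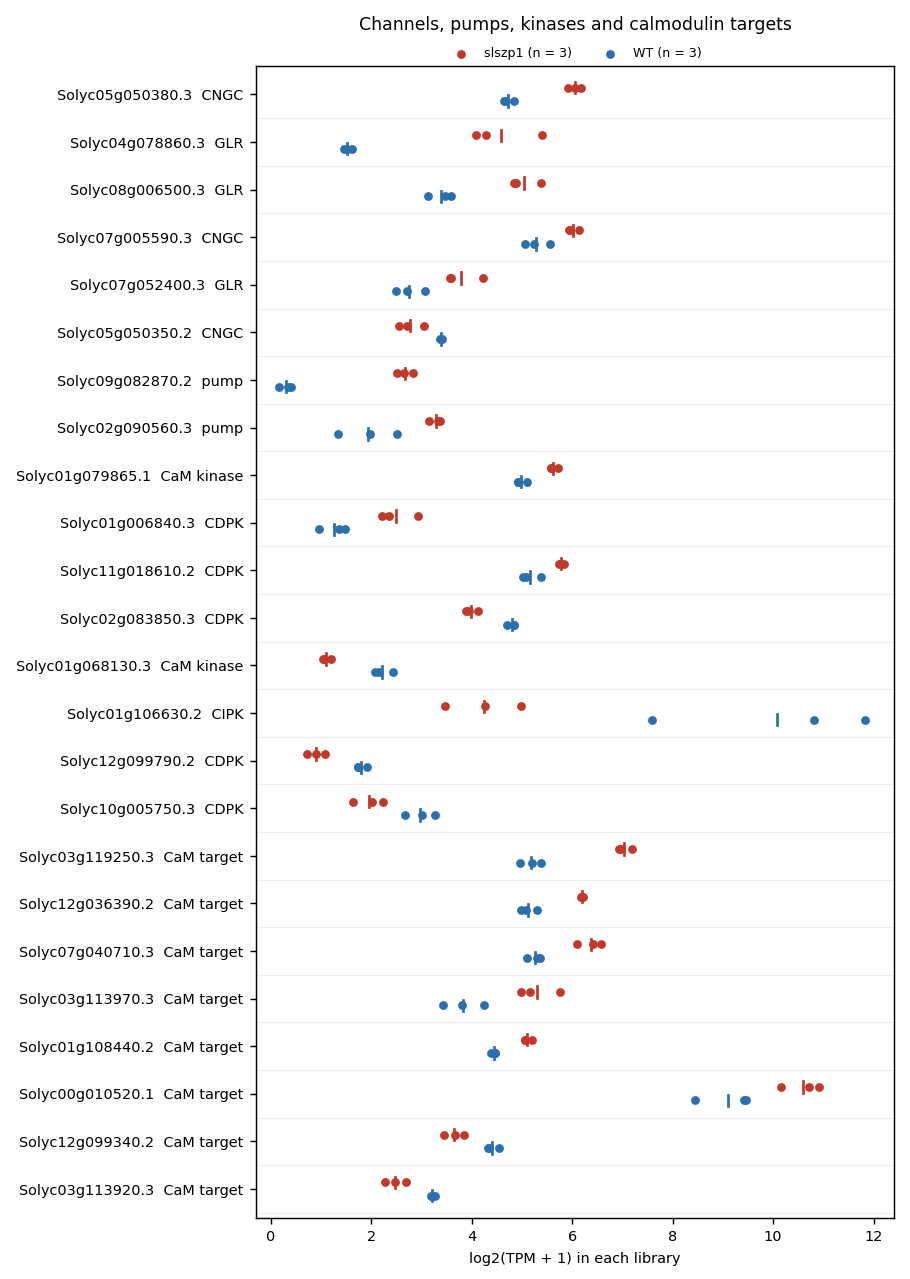
Level of changed channels, pumps, kinases (the 8 with the smallest p) and calmodulin targets in each library as log2(TPM + 1), slszp1 (red, upper points) and WT (blue, lower points), 3 libraries each, with a short line at the mean. No gene shown has overlapping genotypes, and the CIPK model Solyc01g106630.2 has the widest spread in WT.

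Other genes of calcium handling, outside the pattern, changed about as often as genes in general. Of 88 tested, 11 rose and 9 fell (22.7%, against 19.2% of all tested genes). Without slszp1 replicate 1 the counts were 8 and 5, without slszp1 replicate 2 they were 9 and 6, and without slszp1 replicate 3, 7 rose. Of 9 mitochondrial calcium uniporter genes tested, 2 fell (22.2%, against 10.5% of all tested genes) and 0 rose (against 8.71%). Solyc02g089850.3 had 26.5, 31.2 and 27.9 TPM in slszp1, against 100.2, 61.9 and 105 TPM in WT. Solyc02g089840.3, its neighbour by identifier, had 28.3, 28.5 and 36.4 TPM in slszp1, against 59.8, 69.4 and 102 TPM in WT. Both fell, with changes of -1.57 (SE 0.21) and -1.26 (SE 0.21). Cation exchangers carry calcium against protons or sodium. Of 9 tested, 1 rose (11.1%, against 8.71% of all tested genes) and 1 fell (11.1%, against 10.5%). The cation calcium exchanger Solyc07g006370.1 held 0.04, 0 and 0 TPM in slszp1, against 9.05, 10.5 and 13.3 TPM in WT. The vacuolar cation/proton exchanger Solyc07g056110.3 was higher, with 65.6, 72.0 and 79.3 TPM in slszp1 against 38.7, 38.4 and 49.9 TPM in WT.

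Annexins, which bind membranes in the presence of calcium, fell at 2 of 8 tested genes and rose at 0. Of all tested genes, 10.5% fell and 8.71% rose. Annexin 9 (Solyc10g047240.2) had 12.1, 8.13 and 15.3 TPM in slszp1 and 21.1, 20.9 and 20.9 TPM in WT, and annexin 6 (Solyc01g097550.3) had 1.39, 1.05 and 0.84 TPM in slszp1 and 2.72, 8.99 and 3.05 TPM in WT; their calls were lost without any of 5 and of 3 libraries. CDPK-related kinases fell at 1 of 4 tested (against 10.5% of all tested genes). This gene, Solyc01g108400.3, had 2.75, 4.41 and 2.68 TPM in slszp1 and 12.6, 8.23 and 10.4 TPM in WT. Respiratory burst oxidases, enzymes that calcium activates to make superoxide, rose at 1 of 5 tested (20.0%, against 8.71% of all tested genes). That gene, Solyc06g068680.3, had 8.49, 9.44 and 12.9 TPM in slszp1 and 3.51, 3.74 and 3.06 TPM in WT. These 2 calls held without any single library. Calcium-dependent lipid-binding proteins rose at 6 of 30 tested (against 8.71% of all tested genes) and fell at 3 (against 10.5%). The low-quality models Solyc01g005420.2 and Solyc06g036110.1 led in either direction, the first with 176, 216 and 111 TPM in slszp1 and 17.6, 16.4 and 17.5 TPM in WT, the second with 6.1, 5.57 and 6.4 TPM in slszp1 and 60.7, 46.3 and 37.3 TPM in WT. Calreticulin, phospholipase C and the dehydration-responsive family that includes osmosensing channels held 1 rise each, of 4, 4 and 6 tested. Of all tested genes 8.71% rose, and each of these calls was lost without any of 3 libraries. Calreticulin (Solyc04g048900.3), a calcium store of the endoplasmic reticulum, had 33.3, 49.8 and 40.1 TPM in slszp1 and 27.0, 19.9 and 19.0 TPM in WT. EF-hand genes outside the pattern, IQ-domain genes and the two-pore channel held no call by limma among 4, 4 and 1 tested. At an unadjusted limma p under 0.05 there were 1, 0 and 1, against 5758 of all 17702 tested genes.

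Among the 57 members below the expression minimum, 6 lay higher and 5 lower in slszp1 without overlap. Among all 7446 genes below the minimum but above 0 in some library, 6.74% lay higher and 10.4% lower, and values this low are uncertain. The genes named here were chosen after their values were seen. The pump gene Solyc07g065300.2 had 0.87, 1.25 and 3.97 TPM in slszp1 and 0.38, 0.18 and 0.24 TPM in WT, and the pump gene Solyc02g092450.3 had 0.08, 0.06 and 0.02 TPM in slszp1 and 0.62, 0.44 and 0.4 TPM in WT. The CNGC gene Solyc10g006800.3 had 1.37, 0.85 and 2.45 TPM in slszp1 and 0.53, 0.6 and 0.45 TPM in WT. The low-quality model Solyc06g024370.1, described as calcium-dependent protein kinase 30, had 35.5 TPM in slszp1 replicate 1 and was listed at 0 in the 5 other libraries.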

How the data were processed

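The labels put 3 root libraries in the slszp1 group and 3 in the WT group. A single expression table was deposited by the authors. The unit of the deposited values was taken to be TPM from the column sums, which ran from 940694 to 974316. The submitters' processing notes list TopHat2, HISAT2, StringTie and Cufflinks but neither versions nor roles, and a genome build was not given in the sources used. Gene names come from the table, and 0 members matched the RefSeq gene table.

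Values were analysed as log2(TPM + 1) with limma 3.58.1 (trend and robust, statmod 1.5.0) in R 4.3.3, without a replicate block. Adjustment covered the 17702 genes that reached 1 TPM in 3 libraries or more of the 6. The fit was tested on simulated data. Members, lists and tests were chosen with earlier results of these data known. The rule for named genes took, in each class, all changed genes (at most the 8 with the smallest p) and the 2 most abundant, 40 in all; others are said to be chosen after their values were seen. No check of genotype by the targeted gene was made, since no description names it. The labels call the samples biological replicates without saying how many plants each holds. The p-values thus set the difference between genotypes against the spread between these samples.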

Additional observations from a re-analysis of the deposited data

How the results depend on the processing

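No called member changed direction under any alternative, and 28 of the 54 calls held without every single library in turn. Without single libraries 35 to 56 members changed, 22 to 33 upward and 13 to 23 downward; 19 to 29 sensors, 3 to 9 kinases, 3 to 6 channels, 1 to 2 pumps, 5 to 10 targets, 13 to 23 other calcium genes and 2125 to 3806 of all genes changed. A change of at least 2-fold was reached by 14 genes that fell, 5 kinases, 5 targets, 10 other calcium genes and 2018 of all genes. Without low-quality or partly matched models, 5 targets changed. A pseudocount of 0.1, no filter, quantile normalization, median centring and limma without trend and robust left the counts over all members, each of the 5 classes, the other calcium genes and all genes within 1.5 times. Optional hyphens, applied to all members and to CNGC genes, gave 60 changed members against 54, and 6 changed CNGC genes against 3. Changes of abundant genes that had not passed turned sign without single libraries: Solyc01g008950.3 ran from -0.048 to 0.115, Solyc02g094000.1 ran from -0.313 to 0.414, Solyc03g082885.1 ran from -0.002 to 0.06, and Solyc07g008320.3 ran from -0.194 to 0.082. The replicate numbers did not pair the samples: deviations of same-numbered libraries correlated at -0.05, -0.07 and 0.11. With the replicate block 44 members changed, 29 upward and 15 downward. Among the calls lost were those of Solyc12g099790.2, Solyc03g113920.3, Solyc03g083520.3, Solyc12g005040.2 and Solyc01g096820.3 (limma adjusted p of 0.0535, 0.0546, 0.0538, 0.0509 and 0.0542). Depth is unknown, so what it limits among low genes could not be computed.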

Other observations

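The spelling of the descriptions left out some genes of the same families. With spaces allowed in place of hyphens, an alternative chosen after seeing the data, 18 more genes matched. Of these, 14 were tested, and 4 rose and 2 fell by limma, where 8.71% of all tested genes rose and 10.5% fell. The genes so added were CNGC, CDPK and calcium-binding genes. The gene described as cyclic nucleotide gated channel 1 (Solyc05g050360.3) stands between Solyc05g050350.2 and Solyc05g050380.3 by identifier. It had 18.5, 22.8 and 26.8 TPM in slszp1, against 2.99, 2.8 and 2.28 TPM in WT, a rise of 2.67 (SE 0.19) with a limma adjusted p of 8.29e-05 that held without any single library. CNGC15 (Solyc03g098210.3) had 49.9, 57.3 and 65.0 TPM in slszp1 and 26.9, 32.7 and 29.0 TPM in WT. A gene described as CNGC6 (Solyc03g007260.3) rose, with 35.7, 30.4 and 47.3 TPM in slszp1 and 17.8, 22.1 and 23.3 TPM in WT, and the other (Solyc03g007250.1) did not pass. All CNGC genes so defined then numbered 27, of which 17 were tested. Of those, 5 rose (against 8.71% of all tested genes) and 1 fell (against 10.5%). The tested CDPK genes so added did not pass (limma adjusted p of 0.0738 to 0.8). The most abundant of them, Solyc04g009800.3, had 126, 154 and 153 TPM in slszp1 and 105, 86.8 and 117 TPM in WT. Among the added calcium-binding genes, Solyc02g091500.1 rose, Solyc02g063350.1 and Solyc06g068960.1 fell, and the others tested did not pass.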
